A study of Mus musculus with 6 samples.

Results

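The transcripts described here encode the nuclear-encoded subunits of the mitochondrial respiratory chain, complexes I to IV, and of ATP synthase, complex V. Members were all probe sets with exactly 1 gene symbol in the platform annotation that started with Nduf, Uqcr, Atp5, Cox4i, Cox5, Cox6, Cox7 or Cox8, or was Sdha, Sdhb, Sdhc, Sdhd or Cyc1. The rule found 147 of 36701 probe sets, for 81 of 15964 genes. Of these, 74 genes with 136 probe sets were assigned to a complex, and 7 Ndufaf genes with 11 probe sets, which encode assembly factors of complex I and not subunits, were counted apart. A further 16 probe sets that list one of these names beside another symbol were not used.

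Complex I takes electrons from NADH and complex II from succinate. Both pass them through ubiquinone to complex III, and cytochrome c carries them on to complex IV, where oxygen is reduced. Complexes I, III and IV pump protons, and complex V makes ATP from the returning flow. Neurons that fire fast and without pause, as those of the deep cerebellar nuclei do, spend much of this ATP on ion pumping.

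RNA came from male C57BL/6 mice of 11 to 18 weeks that had electrodes implanted in the left eyelid and, after 3 days of recovery, 7 days of training with 352 ms tones and 100 ms periorbital shocks. Paired mice had the shock start 252 ms into the tone and end with it, which is delay eyeblink conditioning. Unpaired mice had both stimuli apart from each other, in pseudorandom order. Each group was 1 pool of 10 to 15 dissected samples, centred on the anterior interpositus nucleus of the side of the implanted eye, with 1 array for each of 3 designs, A, B and C, which hold different probe sets. It is not stated if 1 RNA pool per group served all its arrays. No group had a replicate on any design, so no difference between the pools has a test, and the number of arrays limits the precision.

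All values below are log2 signals after the paired array of a design was shifted by 0.010 or less, and a log2 ratio is the paired minus the unpaired signal. A probe set was kept if its mean signal lay at or above the median of its design, and a gene's log2 ratio is the mean over its kept probe sets. The spread between kept probe sets of the same gene had an SD of 0.18 for the 21 subunit genes with 2 or more of them, and of 0.20 for the 3437 such genes of the whole series. This is the error to hold each single value against, and it does not include the spread between pools of mice. Of 7 listed markers of deep nuclear neurons, Slc17a6, Nefh, Nefm, Syt2, Vamp1 and Snap25 had probe sets with a single symbol and all 6 were kept, with a median signal rank of 95.4 percent over the probe sets of the list. Spp1 was not measured under this rule. Lists of markers of other cell types had median ranks from 47.7 for choroid plexus to 93.5 for oligodendrocytes, so a high rank is not particular to these neurons.

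Many subunit probe sets were among the brightest of design A. Of all 136 subunit probe sets, 58 or 42.6% had a signal rank of 90 percent or above in their design, against 10.8% of the other probe sets with a single symbol. On design A they were 52 of 96 (54.2%), against 10.1% of all probe sets with a single symbol. On design B they were 1 of 9 (11.1%), against 11.1%, and on design C 5 of 31 (16.1%), against 12.2%. Taking the brightest probe set of each gene, 54 of 74 subunit genes reached that rank. A signal rank is the percentile of a probe set's mean signal within its design. It mixes transcript level with how well the probes hybridise, so it does not order genes by abundance.

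By complex, the median rank over all probe sets was 88.6 for complex I, 86.6 for complex II, 97.8 for complex III, 64.3 for complex IV and 69.9 for complex V. Over the brightest probe set of each gene these medians were 97.0, 96.2, 98.5, 90.9 and 98.2 in the same order. The highest ranks within the complexes were 99.9 for Ndufs7, which carries an iron-sulfur centre of complex I, 97.2 for Sdhb, the iron-sulfur subunit of complex II, 99.8 for Uqcrq, a small subunit of complex III, 99.8 for Cox6a1 of complex IV and 99.9 for Atp5md of ATP synthase. All 8 complex III genes had a probe set at rank 90 or above.

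Different probe sets of a gene ranked far apart. In 38 subunit genes with 2 or more probe sets, the median span of ranks within a gene was 52.4 percent, and it exceeded 50 percent in 20 genes. Cox5a, a subunit near the core of complex IV, had a rank of 98.8 on design C, with log2 signals of 8.27 in the paired and 8.49 in the unpaired pool. Its pair of design A probe sets ranked 11.9 and 10.4, and both lay at the floor in both pools. Cox8a, the widespread isoform of a small complex IV subunit, had 1 probe set, which ranked 16.8 and also lay at the floor. A low rank therefore gives no level for a gene here.

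**Figure D1:**
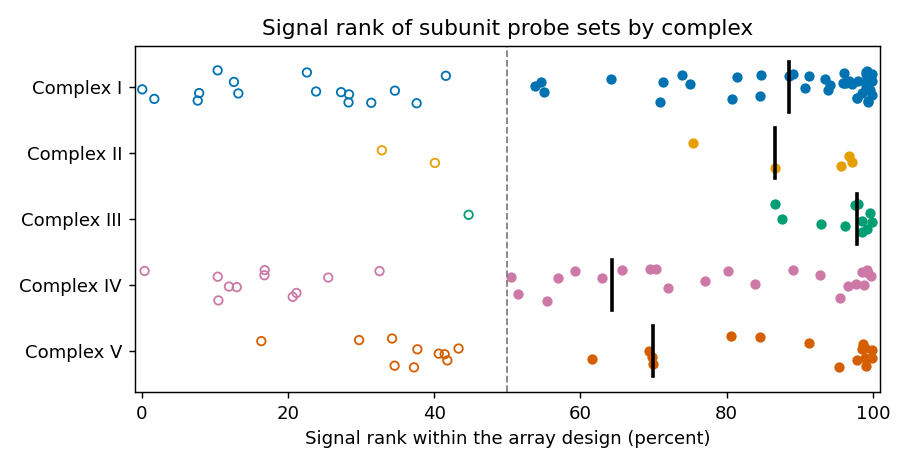
Signal rank within the array design, in percent, of the 136 subunit probe sets by complex, with filled points for kept probe sets, open points for those under the signal filter at 50 percent (dashed line) and a black bar at the median of all probe sets of the complex. Complex III probe sets crowd at the right with a median of 97.8, while those of complexes IV and V spread widely, with medians of 64.3 and 69.9.

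Promoter letters, which the rule did not use, were searched for 3 motifs, and most member windows held none of them. RefSeq windows of assembly GRCm38.p6, from 250 bases before to 50 bases after the gene start, were at hand for 60 of the 74 subunit genes. NRF1, a transcription factor known for binding promoters of respiratory chain genes, recognises a core of GCGCA and GCGC with any base between them. These letters, on either strand, stood in 10 of 60 member windows (16.7%), against 1154 of 17486 windows of protein-coding genes (6.60%). The core AAGATGGC of YY1, which often lies at the gene start, stood in 8 member windows (13.3%) against 3.23% of all. The core CCGGAAGT of ETS factors such as GABPA stood in 4 (6.67%) against 5.29%, which is near the share of all. No member window held both the NRF1 and the YY1 letters. A match is a description of letters and shows no binding. The 10 genes with the NRF1 letters had a median log2 ratio of -0.02, and the other 45 kept genes with a window had -0.03.

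One NRF1 site of each complex is shown 5′ to 3′ on the gene's strand, because these letters occurred in genes of all 5 complexes, with the motif in capitals. The YY1 letters occurred in complexes I and V only, and the site of Ndufs7, the complex I gene with the highest log2 ratio, is shown for them. Ndufa8 holds the motif on the opposite strand.
Ndufa8 (complex I, NRF1, chr2:36049349-36049378, minus strand): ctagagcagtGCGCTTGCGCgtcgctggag
Sdha (complex II, NRF1, chr13:74350231-74350260, minus strand): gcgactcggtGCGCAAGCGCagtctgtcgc
Uqcrc1 (complex III, NRF1, chr9:108936668-108936697, plus strand): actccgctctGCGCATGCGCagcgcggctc
Cox6a1 (complex IV, NRF1, chr5:115349056-115349085, minus strand): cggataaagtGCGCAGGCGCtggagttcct
Atp5g2 (complex V, NRF1, chr15:102671070-102671099, minus strand): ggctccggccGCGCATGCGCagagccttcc
Ndufs7 (complex I, YY1, chr10:80249462-80249491, plus strand): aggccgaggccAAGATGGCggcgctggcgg

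The comparison between the pools asked whether paired training went with another level of these transcripts than unpaired training. No kept subunit probe set was 1.5-fold apart, where 0.681% of all kept probe sets of the series were. Of the 96 kept subunit probe sets, 82 lay within 1.2-fold, a log2 ratio of 0.26 in either direction. At least 1.2-fold higher in the paired pool were 8 (8.33%), against a background of 8.03%, and at least 1.2-fold lower were 6 (6.25%), against 8.33%. Both shares were near the background, so these counts show nothing particular to the respiratory chain. On design A alone 4 of 72 were that much higher, against 7.04% of all, and 5 lower, against 8.31%. On design B they were 1 of 4 higher, against 9.65%, and 0 lower, against 8.57%. On design C they were 3 of 20 higher, against 7.38%, and 1 lower, against 8.11%. The median log2 ratio of the 69 kept subunit genes was -0.01, with gene means from -0.31 to 0.38. Of these genes, 31 were higher, against 49% of all kept genes, and 38 were lower (55.1%), against 51%. All kept probe sets of a gene lay on one side of 0 in 10 of the 21 subunit genes with several, against 42.1% of such genes in the series, and in 8 of the 15 genes with exactly 2, against 50.7%. The median of all 10579 kept genes was -0.0039. In bulk tissue, a change in the number of cells of a type and a change in RNA per cell cannot be told apart.

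**Figure D2:**
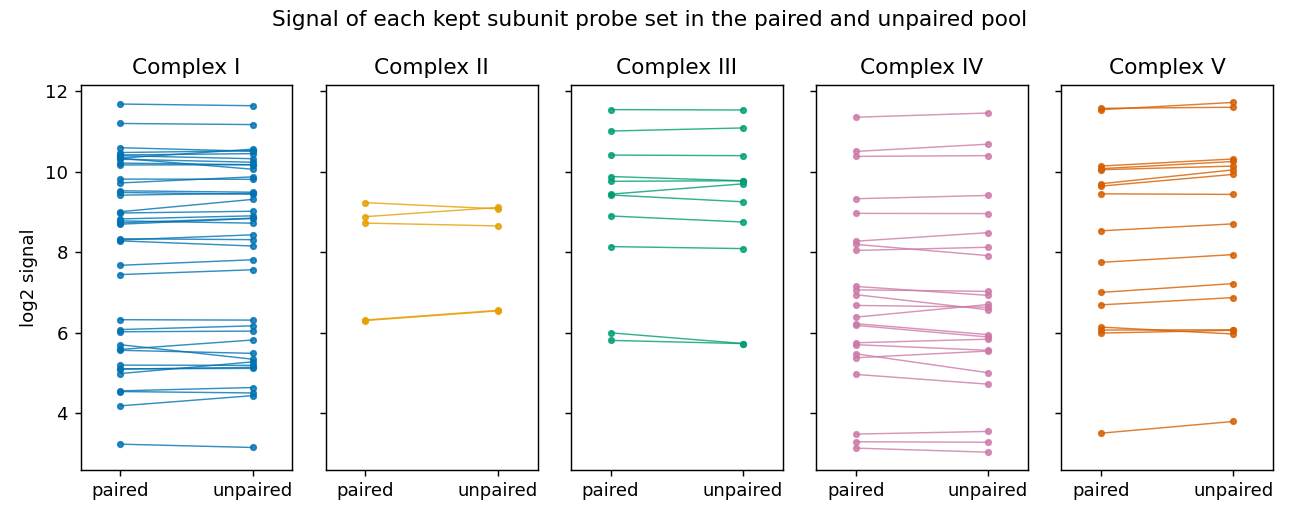
log2 signal of each of the 96 kept subunit probe sets in the paired pool (left) and the unpaired pool (right), one panel for each complex, with a line joining the signals of a probe set. The lines are nearly level in every panel, and in complex V 14 of 16 slope down towards the paired pool.

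In complex I, 13 of 31 kept genes were higher and 18 lower (58.1%) in the paired pool, with a median log2 ratio of -0.02. For this and the gene counts of the other complexes below, 49% of all kept genes were higher and 51% lower. Ndufs7 stood highest. Its log2 signal on design B was 10.33 in the paired and 10.06 in the unpaired pool, a log2 ratio of 0.27 or 1.21-fold. Ndufb9, an accessory subunit of the membrane arm, stood lowest, with 9.00 in the paired and 9.31 in the unpaired pool on design A, a log2 ratio of -0.31 or 1.24-fold. Each rests on a single kept probe set, and each differs by more than the SD of 0.18 between probe sets of a gene. Both were picked as the extremes of 31 genes, so passing that SD says little. From lowest to highest, probe sets of 1 gene spanned 0.60 for Cox4i1 and 0.38 for Ndufs1, which is another measure than a distance from 0.

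The subunits that carry out the chemistry of complex I did not move as one. Ndufv1, which binds NADH and flavin, had 10.59 in the paired and 10.51 in the unpaired pool. Its partner Ndufv2 had 9.42 against 9.46 on one probe set and 4.99 against 5.28 on another. Ndufs1, the largest iron-sulfur subunit, had 8.33 in the paired and 8.31 in the unpaired pool on design A, and 6.03 against 6.04 on design C. Another Ndufs1 probe set, with the suffix g, had 5.70 against 5.34, a log2 ratio of 0.36. Ndufs3 had 8.83 in the paired and 8.90 in the unpaired pool, and Ndufs8, an iron-sulfur subunit next to Ndufs7, had 9.72 against 9.87. Ndufs7 was higher on design B and Ndufs8 lower on design C, with log2 ratios of 0.27 and -0.15. The value of Ndufs8 lies within the SD of 0.18 between probe sets of a gene, and the designs were scaled apart. By module, the median was -0.02 over 9 genes of the NADH module, -0.04 over 4 of the ubiquinone module and -0.02 over 18 of the membrane arm and linkers.

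The Ndufaf assembly factors, which help to build complex I and leave it, were likewise close to even. Of their 6 kept genes 2 were higher and 4 lower in the paired pool, with a median of -0.03 and gene means from -0.19 for Ndufaf1 to 0.07 for Ndufaf5. Ndufaf3 had 7.13 in the paired and 6.95 in the unpaired pool on design B, but 5.71 against 5.90 on design C.

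Complex II, the only one that also works in the citric acid cycle, had all 4 genes kept. Sdha, the flavin subunit that oxidises succinate, had 6.30 in the paired and 6.54 in the unpaired pool, a log2 ratio of -0.24. Sdhb disagreed between designs, with 9.23 against 9.08 on design A and 6.32 against 6.56 on design B. Sdhc, a membrane anchor, had 8.88 in the paired and 9.11 in the unpaired pool, and the other anchor Sdhd 8.72 against 8.65. With 3 of 4 genes lower, the median was -0.14. On design A alone 2 of 4 were lower, with a median of -0.08, and at rank 90 or above 2 of 3 were higher, with a median of 0.07. Of its 5 kept probe sets 0 reached 1.2-fold, against 8.03% of all kept probe sets higher and 8.33% lower.

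In complex III, 6 of 8 genes were higher, against 49% of all kept genes, and 2 lower, with a median of 0.03. All 8 had a design A probe set at rank 90 or above, where 61.2% of all genes were lower. Without suffixed probe sets the median was -0.0032 over 6 genes. Uqcrc2, a core protein of the matrix side, stood highest with 9.42 in the paired and 9.25 in the unpaired pool, a log2 ratio of 0.17, while the other core protein, Uqcrc1, had 9.76 against 9.77. Uqcr11, a small subunit, stood lowest with 9.44 against 9.70, a log2 ratio of -0.26. Uqcrh, the hinge protein that helps cytochrome c to dock, was higher on all 3 of its probe sets, with 9.88, 5.81 and 6.00 in the paired pool against 9.77, 5.73 and 5.73 in the unpaired pool. Cyc1, which holds the haem that hands electrons to cytochrome c, had 11.01 in the paired and 11.08 in the unpaired pool on its brightest probe set and 8.90 against 8.75 on the other.

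Complex IV had 14 of 16 genes kept, with 9 higher and 5 lower (35.7%), against 51% of all kept genes lower, and a median of 0.03. This direction differed between brighter and dimmer probe sets. At rank 90 or above 3 genes were higher and 5 lower (62.5%), with a median of -0.08, near the 56.7% of all genes lower at that rank. Below that rank 7 were higher and 2 lower, with a median of 0.13. The dimmer ones included probe sets of Cox6c, Cox6b2 and Cox8b with the suffix r, a kind taken up further on. Brightness and probe kind are therefore mixed here. The median changed sign in 4 of 14 alternatives. The subunits with no tissue-specific isoform measured here lay on both sides of 0. Cox5a was lowest of the complex, with a log2 ratio of -0.21 from the design C signals given above, and Cox5b had 9.33 in the paired and 9.41 in the unpaired pool. Cox4i1, a subunit that regulates the enzyme, had probe sets at 6.39 against 6.70 and at 6.18 against 5.90 on the same design, and at 6.68 against 6.64 on design B. Its log2 ratios of -0.31 and 0.29 on 1 pair of arrays are the widest disagreement among the 21 subunit genes with several kept probe sets.

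Several complex IV subunits come as isoforms made in different tissues. Cox6a1, the form of most tissues, had 11.35 in the paired and 11.45 in the unpaired pool on design A and 5.38 against 5.55 on design B, while its heart and muscle counterpart Cox6a2 had 4.97 against 4.72 at a rank of 50.5, just above the filter. Cox6b1 had 5.70 against 5.56 on design A and 7.15 against 6.93 on design C. Cox6b2, known from testis, had 5.48 in the paired and 5.01 in the unpaired pool on one probe set, a log2 ratio of 0.47 or 1.39-fold, which was the largest among all kept subunit probe sets. Its other kept probe sets gave 5.75 against 5.84 and 3.30 against 3.28.

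Cox7a2 had 10.38 against 10.40 on design A and 8.19 against 7.92 on design C. The heart and muscle form Cox7a1 lay at the floor in both pools, and Cox7a2l, which links complexes III and IV into supercomplexes, had 8.04 in the paired and 8.12 in the unpaired pool. Cox7b had 8.96 in both pools, and Cox7b2, a testis form, 3.14 against 3.04. Cox8b, a heart and muscle form, had one kept probe set with 6.95 in the paired and 6.57 in the unpaired pool, a log2 ratio of 0.38, and another at the floor. The kept probe sets of Cox8c, a testis form, had 7.07 against 7.03 and 3.49 against 3.55. The highest gene means of the complex were those of Cox8b, of Cox6a2 and of Cox6b1. Cox8b and Cox6b1 rested on probe sets with the suffix r, a kind taken up further on, and Cox6a2 on 1 probe set beside the filter.

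Complex V was the complex whose genes leaned most to one side. In the paired pool 10 of 12 kept genes were lower (83.3%), against 51% of all kept genes, and the median log2 ratio was -0.17, with an SD over the genes of 0.13. At rank 90 or above 9 of 10 probe sets were lower. All of these lay on design A, where 61.1% of the probe sets at that rank were lower. At least 1.2-fold lower were 2 of these 10, against 8.13% on that design at that rank, and 0 were that much higher, against 2.33%. Of all 16 kept complex V probe sets 0 were at least 1.2-fold higher, against 8.03% of all kept probe sets, and 3 at least 1.2-fold lower, against 8.33%. Of these 16, 9 carried a suffix that marks how the probes were chosen, and 5 of them the suffix f, of which 58.5% were lower over the whole series. The median was -0.091 without suffixed probe sets and -0.11 without the signal filter. The genes were placed on this side without a replicate array, and no test of the shift was possible.

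The head of ATP synthase, F1, is where ATP is made. Its alpha subunit Atp5a1 had 10.05 in the paired and 10.14 in the unpaired pool. Atp5c1, the gamma subunit that turns inside the head, had 8.53 against 8.70 on one probe set and 9.70 against 10.04 on the other, the second a log2 ratio of -0.35. Atp5d, a subunit of the central stalk, had 7.75, 5.99 and 7.00 in the paired pool against 7.94, 6.06 and 7.22 in the unpaired pool on its 3 kept probe sets, whereas the pair of unsuffixed design A probe sets under the filter had 4.20 against 3.81 and 3.92 against 3.78. Atp5e, the smallest head subunit, had 10.14 against 10.31. All 7 kept probe sets of these 4 genes were lower in the paired pool. They all lay on design A, where 50.7% of kept genes were lower, and 61.1% of probe sets at rank 90 or above. The beta subunit of the head had no probe set under the rule, so the head was measured in part.

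The membrane part Fo and the peripheral stalk that holds the head still gave 2 higher and 6 lower genes, with a median of -0.10. Atp5mpl, a small membrane subunit, was the lowest of the complex, with 9.64 in the paired and 9.93 in the unpaired pool, a log2 ratio of -0.29 or 1.22-fold. Atp5o, which joins the stalk to the head, had 10.07 against 10.25, and Atp5md, which helps ATP synthase to form dimers, 11.54 against 11.72. Atp5l, another subunit at the dimer interface, had 11.57 in the paired and 11.60 in the unpaired pool, Atp5j of the stalk 9.45 against 9.43, and Atp5k 6.07 in both. Atp5g1 and Atp5g2 encode the same mature ring protein, subunit c, behind different import signals. Atp5g1 had 6.14 in the paired and 5.97 in the unpaired pool, a log2 ratio of 0.17 and the highest of the complex, while Atp5g2 had 6.69 against 6.87 and 3.51 against 3.80. Atp5pb and Atp5j2 had no kept probe set.

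**Figure D3:**
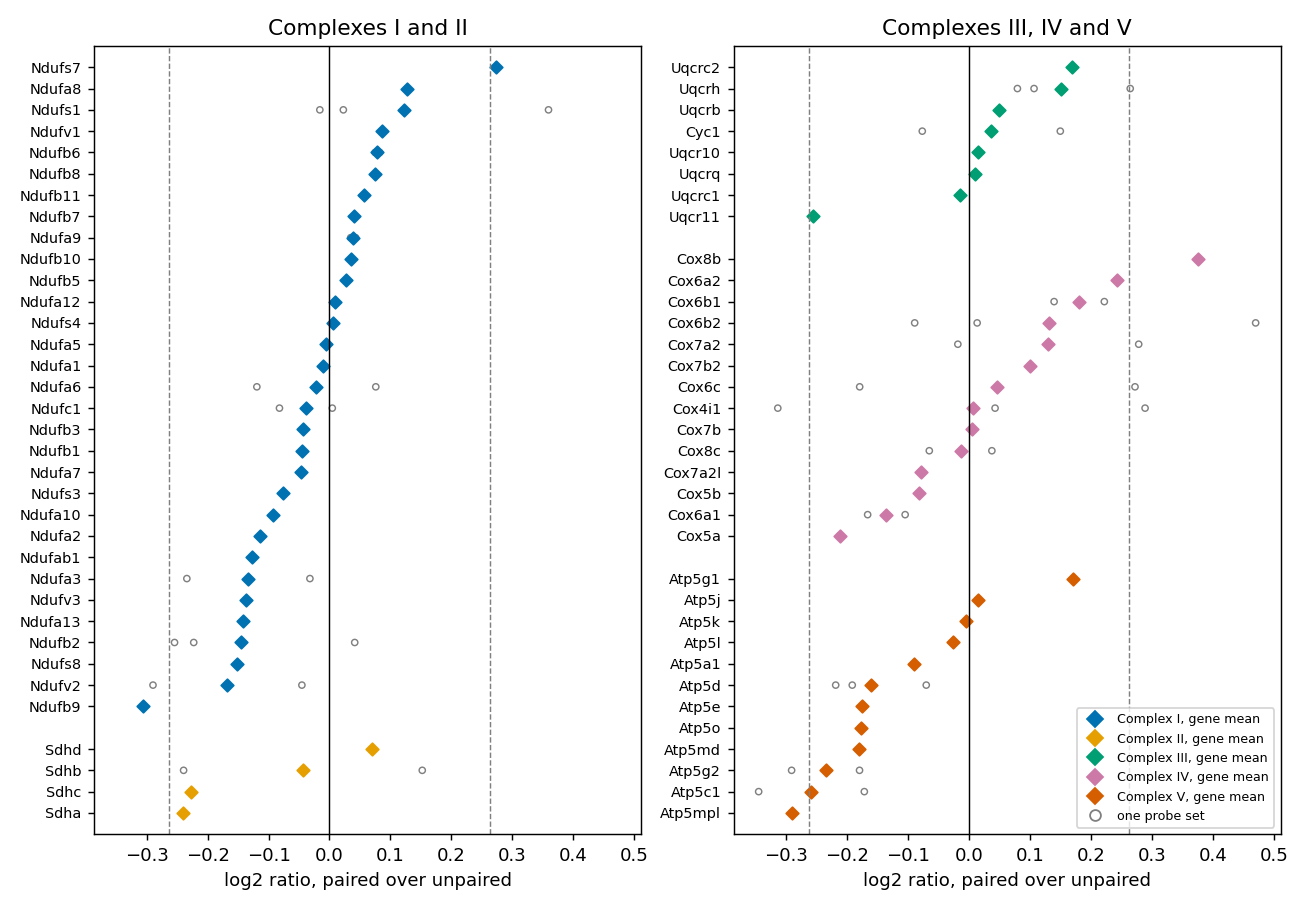
Mean log2 ratio, paired over unpaired, of each of the 69 kept subunit genes (diamonds, coloured by complex) with the single probe sets of genes that had several (open circles) and dashed lines at 1.2-fold. Gene means run from -0.31 for Ndufb9 to 0.38 for Cox8b, and 10 of 12 complex V genes lie left of 0.

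Direction went with the kind of probe set. On these arrays a letter before the end of a probe set's name marks how its probes were chosen: r where design rules were relaxed, f where probes match a gene family, and none where they are meant to be specific. All 12 kept subunit probe sets with the suffix r were higher in the paired pool, with a median log2 ratio of 0.20, where 59% of all kept r probe sets of the series were higher. Of the 19 with the suffix f, 15 were lower (78.9%), with a median of -0.18, where 58.5% of all kept f probe sets were lower. The 57 without a suffix had a median of -0.02, with 24 higher and 33 lower. By design, 7 of 7 r probe sets were higher on A, against 76.6% of all, and 5 of 5 on C, against 54.9%, while B held none, where 43.5% of all were higher. Of the f probe sets, 13 of 16 were lower on A, against 55.6% of all, 1 of 2 on B, against 58.5%, and 1 of 1 on C, against 60.6%.

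Within genes, the same probe sets can be set side by side. This adds no separate support, because all r values lay above 0 and all f values of the 3 genes with both kinds below it. The share over all such genes of the series was not counted. In each of the 3 genes with kept probe sets of both kinds, every r probe set lay above every f probe set: Ndufb2 had 0.04 against a mean of -0.24, Cox6c 0.27 against -0.18, and Cox6b2 a mean of 0.24 against -0.09. Ndufb2 on design A had 11.68 in the paired and 11.64 in the unpaired pool with the suffix r, and 10.33 against 10.56 with the suffix f. Cox6c had 6.23 against 5.95 with the suffix r and 10.50 against 10.68 with the suffix f. In Cyc1 and Cox7a2 the r probe set lay above the unsuffixed one, and in Uqcrh the unsuffixed one lay between its 2 r probe sets.

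Of the 8 subunit probe sets at least 1.2-fold higher, 5 carried the suffix r and 1 the suffix g, which left an unsuffixed one of Cox4i1 and that of Ndufs7. Of the 6 at least 1.2-fold lower, those of Ndufb9 and Atp5mpl had no suffix. Without any suffixed probe set the median of complex V was -0.09 over 7 genes, of which 6 were lower. That of complex IV turned to -0.02 over 8 genes and that of complex III to -0.0032 over 6.

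**Figure D4:**
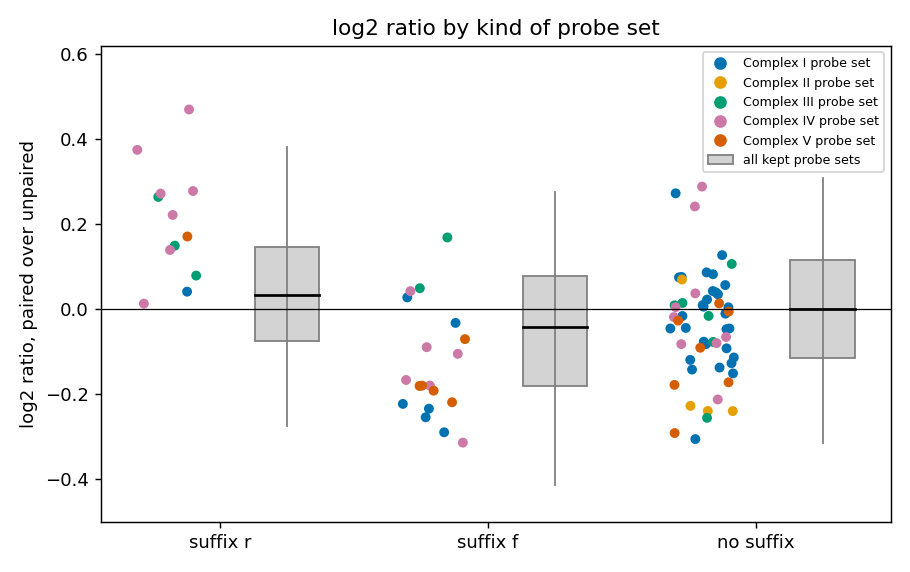
log2 ratio, paired over unpaired, of kept probe sets by suffix. Points are subunit probe sets coloured by complex, and boxes are all kept probe sets of the series (box from the 25th to the 75th percentile, bar at the median, whiskers at the 5th and 95th percentiles). All 12 subunit points with the suffix r lie above 0, and 15 of 19 with the suffix f lie below it.

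Other genes of mitochondrial energy supply had medians between -0.08 and 0.03. For the counts of genes in these lists, 49% of all kept genes were higher and 51% lower. Of 16 enzymes of the citric acid cycle and pyruvate oxidation 7 were higher and 9 lower in the paired pool, with a median of -0.07, from -0.36 for Dld, a subunit that several dehydrogenases share, to 0.23 for Idh2, an isocitrate dehydrogenase. Cytochrome c, carriers and porins had 3 higher and 7 lower genes and a median of -0.08, from -0.20 for the porin Vdac3 to 0.13 for the ATP synthase inhibitor Atpif1. Assembly factors of all complexes had 14 higher and 12 lower genes and a median of 0.03, from -0.41 for Bcs1l, which inserts the iron-sulfur protein of complex III, to 0.30 for Ecsit. Regulators of mitochondrial biogenesis had 8 higher and 5 lower genes and a median of 0.02, from -0.17 for Yy1 to 0.14 for Nrf1. Genes of the mitochondrial ribosome had 27 higher and 35 lower and a median of -0.03, from -0.54 for Mrps2 to 0.42 for Mrps9. In each of these lists 0 kept probe sets were 1.5-fold apart, which with a background of 0.681% shows nothing particular to them.

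Of the cell type marker lists, that of granule cells lay on one side. Of its 6 markers, 4 were kept and all were higher in the paired pool, with a median of 0.43 and a summed linear signal of 579 in the paired and 420 in the unpaired pool. All 6 kept probe sets of this list were at least 1.2-fold higher, against 8.03% of all, and 2 at least 1.5-fold apart, against 0.681%. For the counts of genes in this and the other lists, 49% of all kept genes were higher and 51% lower. Purkinje cell markers had a median of 0.09 over 5 genes, with 4 higher, and sums the other way, of 7219 against 7427. Of their 10 kept probe sets 3 were at least 1.2-fold higher, against 8.03% of all, and 0 that much lower, against 8.33%. At least 1.5-fold apart was 1, against 0.681%. Car8 had a mean log2 ratio of 0.42 and Ppp1r17 of 0.41, while Calb1 had 0.09, Pcp2 0.01 and Pvalb, the brightest of them, -0.12. Oligodendrocyte markers had -0.08 over 6 genes, with 5 lower and sums of 9268 against 9758. Deep nuclear neuron markers had 0.07 over 6 genes and sums of 8214 against 8113. Of their 12 kept probe sets 3 were at least 1.2-fold higher and 0 that much lower. The medians of Purkinje cell, oligodendrocyte and deep nuclear neuron markers were smaller than the SD between probe sets of a gene. That SD is the spread of single values and not the error of a median over several genes. Astrocyte markers had 0.16 over 5 genes, with 3 higher and 2 lower, from -0.33 for S100b to 0.30 for Aqp4, and sums of 5160 against 4776. Microglia markers had 0.06 over 5 genes and sums of 1124 against 1061, endothelial ones -0.14 over 3 and sums of 443 against 496, choroid plexus ones -0.17 over 2 and sums of 125 against 138, and blood ones -0.10 over 3 and sums of 2174 against 2338. The part of cell makeup in the respiratory chain values was not tested.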

How the data were processed

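RNA pools of deep cerebellar nuclei were hybridised to 6 arrays, 1 per group for each of 3 designs. Deposited values range from 1.40 to 12.5 and were taken as log2 signal for that reason. The sources used here do not give their background correction, summarisation or normalization. Symbols came from the platform annotation, with 29131 of 36701 probe sets carrying 1 symbol, 724 several and 6846 none listed. From the deposited values, a constant was subtracted on the paired array of each design to bring the median log2 ratio, over probe sets at or above the design's median, to 0. Signals were floored at the 25th percentile of the design. Differences are descriptive, without tests or p-values. Genes were named with values if they had the highest or lowest mean ratio or the highest rank of a complex, were catalytic core subunits, belonged to an isoform set, or were the extremes of a comparison list. Other genes named here were chosen after their values were seen. The members and lists were chosen with earlier results of these data known. Alternatives were other scalings, other floors, other signal filters, single designs, probe sets without suffixes, and the brightest probe set or the median per gene. The scripts, tested on simulated data, used Python 3.11.15, numpy 2.4.6, pandas 2.3.3, statsmodels 0.14.6 and matplotlib 3.10.9.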

Additional observations from a re-analysis of the deposited data

How the results depend on the processing

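Of 122 recomputed median log2 ratios, 111 moved by less than an error taken from the spread between probe sets of a gene and 11 by more. All 10 recomputed median ranks, by complex, moved by less than the ranks' semi-interquartile range. That range is the spread of single probe sets, 34.8 for complex IV and 28.8 for complex V, so it does not show the medians to be stable. For complex V the median rank, 69.9 as reported, was 55.7 without suffixed probe sets and 98.2 over the brightest probe set of each gene. For complex IV, 64.3 as reported, it was 64.4 and 90.9. Of 39 recomputed counts, for which no error was taken, 29 stayed within 1.5 times the reported count and 10 did not. These tallies include settings that could hardly move a value, because no kept subunit probe set lay at the floor. Without a floor every median and count equalled the reported one. With the floor at the median all did but the median of mitochondrial biogenesis. The sign turned for 10 medians: 2 of all subunit genes, 2 of complex I, 1 of complex III, 4 of complex IV and 1 of the citric acid cycle. Complex V stayed below 0 in all 13 alternatives run, from -0.18 to -0.09, and moved to -0.11 without a signal filter and -0.091 without suffixed probe sets. No floor, the floor at the median and design A alone returned the reported -0.17 for complex V. All alternatives reuse the same arrays, so their number does not stand in for replicates. With a filter at the 75th percentile complex IV moved to -0.080. In alternatives chosen after seeing the data it moved to -0.049 without r probe sets and 0.13 without f probe sets. The median of all subunit genes was -0.062 on design B (4 genes), 0.012 on design C (18 genes) and -0.041 without r probe sets. The citric acid cycle median was -0.010 after quantile normalization, -0.0057 without a filter and 0.024 without suffixed probe sets. The count at least 1.2-fold higher, 8 as reported, was 13 without a filter, 5 at the 75th percentile, 2 without suffixed probe sets, 4, 1 and 3 on designs A, B and C alone, and 3 without r probe sets. The count at least 1.2-fold lower, 6 as reported, was 2 without suffixed probe sets, 0 on design B and 1 on design C. Fewer probe sets enter each single design; otherwise the cause was not tested. Medians under 3 genes were not run, which left out each complex on design B and complexes II, III and V on design C. No paired analysis was possible because each group has 1 array per design. Signals at the floor give no difference.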

Other observations

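The split by probe set kind was not the same on all designs. Over all kept probe sets of the series, 76.6% of those with the suffix r were higher in the paired pool on design A, 43.5% on design B and 54.9% on design C. On design A their median log2 ratio was 0.11, against -0.0070 for unsuffixed probe sets.

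Among the deep nuclear neuron markers, Slc17a6, the vesicular glutamate transporter of these projection neurons, had kept probe sets with log2 ratios from -0.08 to 0.85.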
